A study of Mus musculus with 3 samples.

Results

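Blood vascular endothelial cells line the arteries, capillaries and veins of the skin. Here they were chosen cell by cell from 3 single-cell libraries of dorsal skin, and 328 of 24858 filtered cells met the rule. A cell had to hold at least 300 genes and at most 20% mitochondrial UMIs (unique molecular identifiers, each standing for 1 captured transcript). It had to show at least 3 of the 7 endothelial genes Pecam1, Cdh5, Kdr, Flt1, Emcn, Plvap and Esam. It could hold no UMI of Prox1 or Mmrn1, which mark lymphatic endothelium, and fewer than 5 UMIs per 10000 of the lymphatic chemokine Ccl21a. It could hold no UMI of the leukocyte gene Ptprc, and fewer than 20 per 10000 of the collagen genes Col1a1 and Col1a2 summed. The levels of these genes in the chosen cells are therefore descriptions of the choice and not results.

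All mice were C57BL/6 at 7 weeks of age. The normal library came from skin given glycerin, labelled as control. The IMQ library came from skin given imiquimod, a Toll-like receptor agonist used on mouse skin to model psoriasis. Skin given both imiquimod and celastrol, a triterpenoid from plants, gave the IMQ+celastrol library. There was 1 library per group, the number of mice behind each is not given in the sources used here, and no difference below has a replicate check. The libraries held 77880943, 119831835 and 103267738 UMIs over 10565, 8236 and 6777 cell barcodes, in the order normal, IMQ and IMQ+celastrol, which is kept throughout. The 3 pairs of libraries shared 15 to 26 barcode sequences, and 1 chosen cell had a barcode seen in another library.

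The endothelium carries fatty acids, water and hormones from blood to tissue, chiefly in capillaries, and lets leukocytes leave the blood, chiefly in postcapillary venules. In inflamed skin, venules display selectins and the adhesion molecule ICAM-1, which slow and then arrest leukocytes, while new vessels sprout and lay down basement membrane. Arterial endothelium is marked by the connexins Gja4 and Gja5, and capillary endothelium by the fatty acid carrier Cd36 and the lipoprotein lipase anchor Gpihbp1. Venous endothelium is marked by P-selectin (Selp) and the chemokine-binding receptor Ackr1.

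The rule chose 209 normal, 75 IMQ and 44 IMQ+celastrol cells. A separate list of 25 pan-endothelial genes that the rule did not use, such as Eng, Egfl7, Cd34, Tie1 and Robo4, was used to check the label. The lowest of the cells carrying the list held 14.7, 36.8 and 29.1 UMIs of it per 10000 in the 3 libraries, and the highest of the rest held 5.20, 4.19 and 3.94. In the normal library the split fell in a low tail, with 9 carrying cells between 14.7 and 24.96 per 10000, 1 of them with fewer than 3 genes of the list. Cells carrying the endothelial genes numbered 206 of 209, 58 of 75 and 23 of 44. The other 3, 17 and 21 cells held 15 mural genes (pericyte and smooth muscle genes such as Rgs5, Acta2 and Tagln) at medians of 165, 431 and 200 per 10000, against 2.76, 1.98 and 4.50 in the cells that carried endothelial genes. These 41 cells go against the label, and most met the rule with exactly 3 of its 7 genes. Of the cells carrying the endothelial list, 17 of 206 normal, 1 of 58 IMQ and 1 of 23 IMQ+celastrol cells held more UMIs of 15 keratinocyte genes than of the list, up to 781, 222 and 141 per 10000, so their markers are mixed too. With cells left out by a limit on keratin and mural genes, the capillary list described below kept its direction in IMQ over normal (median log2 ratio -1.56). In the IMQ library 0 of the 16 cells with exactly 3 rule genes carried the endothelial list, and in the IMQ+celastrol library 4 of 23 did. The 41 cells without the endothelial list held 30465 of 995126, 329457 of 1417353 and 664572 of 992461 UMIs of the chosen cells in the 3 libraries. Values below are for all cells of the rule unless said otherwise. In IMQ+celastrol such summed levels come mostly from cells without the endothelial list, and a value given only on that basis carries this limit. The main counts and levels are also given for the 287 cells that carried endothelial genes. That split, at 10 UMIs per 10000, was chosen after seeing the data.

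**Figure D1:**
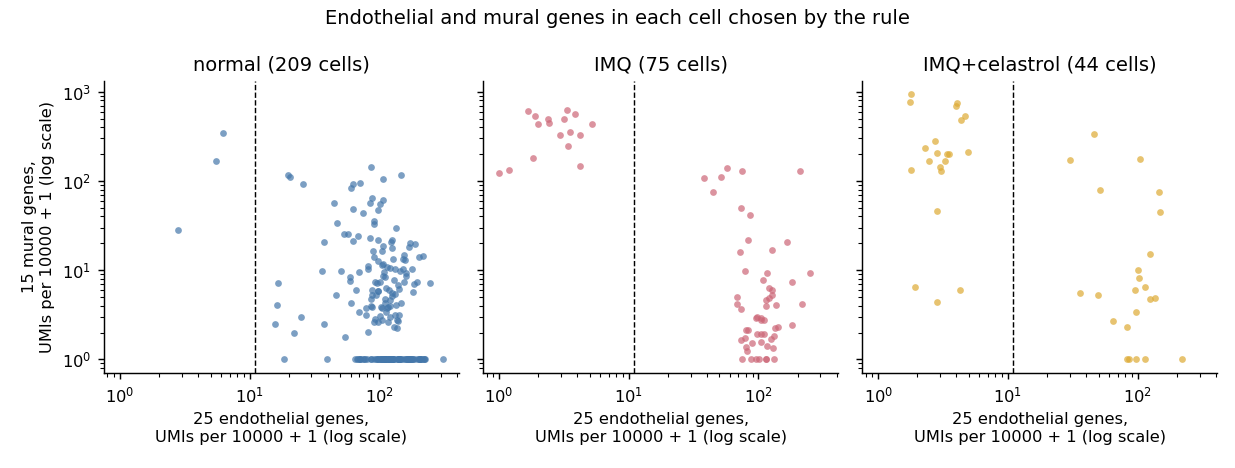
Each point is 1 cell chosen by the rule, with its summed UMIs per 10000 of 25 pan-endothelial genes (x axis) and of 15 mural genes (y axis), both plus 1 on log scales. The dashed line is the split at 10 per 10000: 3 normal, 17 IMQ and 21 IMQ+celastrol cells lie to its left, and few points lie near it.

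The chosen cells were shallow in the normal library. Their median was 3733 UMIs, against 15515 in IMQ and 15112 in IMQ+celastrol, and 46, 2 and 3 cells held fewer than 2000. The 15 genes that led most over all other filtered cells in every library included 4 of the rule and 11 that it did not use. Among the latter were Tmem252, Vwf (von Willebrand factor, which tethers platelets), Mmrn2, Ptprb (a phosphatase that restrains the TIE2 receptor), Cd93, Icam2 and the sphingosine receptor S1pr1. Vwf stood at 436, 364 and 124 CPM (UMIs per 1000000 UMIs of the chosen cells), against 1.66, 1.42 and 0.679 in all other filtered cells. CPM is a level per UMI and not per transcript length, and genes are compared between libraries and not with each other. Summed mural genes reached 1783, 9914 and 15212 CPM in all cells of the rule, and 1564, 1829 and 6926 CPM in those carrying endothelial genes. Summed keratinocyte genes reached 4797, 2620 and 7246 CPM and fibroblast genes 3027, 7383 and 7179 CPM, with 14 or 15 of 15 genes of each list detected. Myeloid genes reached 109.5, 1090 and 2385 CPM with 8 to 10 of 15 detected, lymphoid genes 80.4, 231 and 314 CPM with 5 to 7 of 15 detected and Ptprc at 0 by the rule. In the cells carrying endothelial genes these sums were 113, 294 and 107 CPM for myeloid genes, 4775, 1336 and 1415 CPM for keratinocyte genes and 3002, 5896 and 7024 CPM for fibroblast genes. Their part in the results below was not tested.

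Blood endothelial cells were a smaller share of the IMQ and IMQ+celastrol libraries than of the normal library. They made up 2.004% of filtered normal cells (exact 95% binomial interval 1.74 to 2.29), 0.937% of IMQ cells (0.737 to 1.17) and 0.685% of IMQ+celastrol cells (0.498 to 0.919). The IMQ share was 2.14-fold lower than the normal one (interval 1.64 to 2.82), and the IMQ+celastrol share was 1.37-fold lower than that of IMQ (0.930 to 2.03), an interval that includes no difference. Among cells carrying endothelial genes the shares were 1.98%, 0.724% and 0.358%, so that IMQ was 2.73-fold below normal (2.03 to 3.72) and IMQ+celastrol 2.02-fold below IMQ (1.23 to 3.44). All intervals cover counting error only, since variation between animals and skin pieces cannot be had from 1 library per group.

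The collagen limit of the rule bore unequally on the libraries, removing 6, 41 and 25 cells, of which 6, 4 and 3 carried endothelial genes. The highest chosen cells held 19.1, 19.6 and 19.7 collagen UMIs per 10000 and the lowest removed ones 34.9, 20.03 and 21.7. With a limit of 100 per 10000 the shares were 2.04%, 1.44% and 1.04%, and IMQ was 1.42-fold below normal (1.13 to 1.80). With that limit and the endothelial list required, IMQ was 2.64-fold below normal (1.98 to 3.58). The limit on Prox1 and Mmrn1 removed 33, 183 and 124 cells. Lymphatic cells, counted separately by these genes and Ccl21a, numbered 42, 172 and 139, or 0.403%, 2.15% and 2.16% of the libraries. When all cells with at least 3 rule genes and the endothelial list were counted with no other limit, the shares were 2.38%, 2.98% and 2.32%. The lower blood share thus came with a higher lymphatic share. The limits of 0 UMIs and the count of detected rule genes depend on depth, which differed between libraries. Chosen cells held medians of 3733, 15515 and 15112 UMIs, and the part of depth in the shares was not tested. The recovery of cells from the tissue and the number of vessels in it cannot be told apart.

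**Figure D2:**
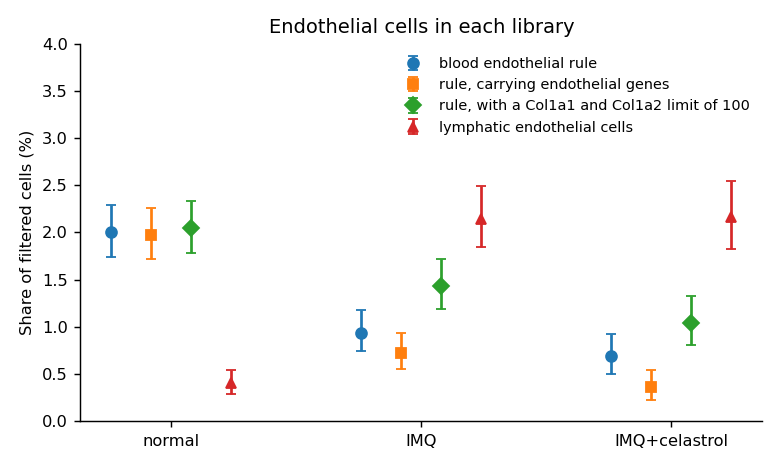
Share of filtered cells (%) in each library, with exact 95% binomial intervals, for all cells of the rule, those carrying endothelial genes, the rule with a collagen limit of 100 UMIs per 10000, and lymphatic endothelial cells. Both blood endothelial counts are highest in the normal library, where lymphatic cells are lowest at 0.403%.

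The kinds of vessel represented among the cells differed between libraries. Cells of at least 2000 UMIs were thinned to 2000 each and given a kind where they held at least 2 of its 5 markers and more than of the other kinds. Of 163 normal, 73 IMQ and 41 IMQ+celastrol cells, 92, 15 and 2 were capillary-marked, or 56.4% (interval 48.5 to 64.2), 20.5% (11.98 to 31.6) and 4.88% (0.596 to 16.5). Venous-marked cells numbered 27, 17 and 1 and arterial-marked cells 11, 8 and 7. No kind was given to 33, 33 and 31 cells, or 20.2% (14.4 to 27.2), 45.2% (33.5 to 57.3) and 75.6% (59.7 to 87.6). Among the cells carrying endothelial genes (160, 56 and 20), capillary-marked cells were 57.5%, 26.8% and 10% (2 of 20), venous-marked cells 16.9%, 30.4% and 0 of 20 (upper bound 16.8%), arterial-marked cells 6.88%, 14.3% and 35.0%, and cells of no kind 18.8%, 28.6% and 55%. The intervals of the normal and IMQ libraries among these cells did not overlap for capillary-marked cells. They did overlap for the other kinds and for cells of no kind. A kind can be lost here through lower levels of its markers as well as through fewer cells, and these cannot be told apart. Differences between libraries in summed counts below are differences between these mixtures.

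**Figure D3:**
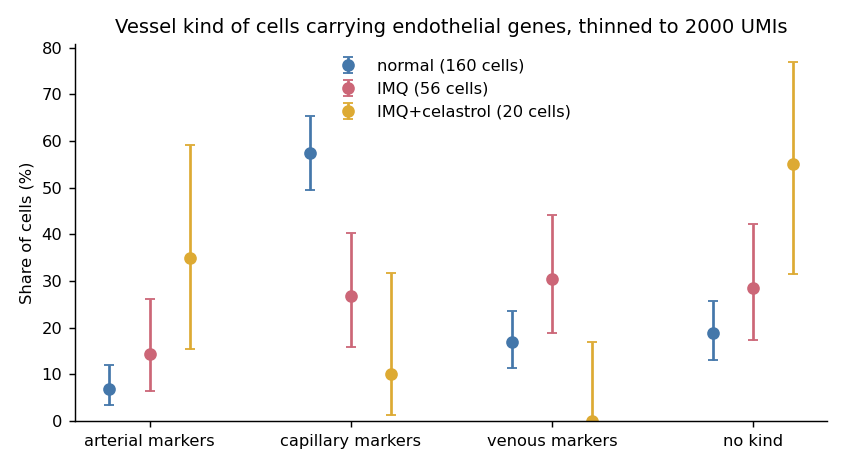
Share (%) of cells carrying endothelial genes that were given each vessel kind after thinning to 2000 UMIs, with exact 95% binomial intervals. Capillary-marked cells run from 57.5% in the normal library to 10% in IMQ+celastrol, while arterial-marked cells run from 6.88% to 35.0%.

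A gene was compared between 2 libraries where they held at least 20 UMIs of it, and called where the log2 ratio of CPM + 1 reached a 2-fold difference. Of 9003 genes compared over all cells of the rule, 8.99% were higher and 7.43% lower in IMQ than in normal cells. Among cells carrying endothelial genes, 6.66% of 8287 genes were higher and 7.55% lower. The genes past 2-fold over all cells of the rule included many of the mural, fibroblast and epidermal kinds. Krt6b, Sprr2d and Actg2 headed the higher genes, with 175, 125 and 113 IMQ UMIs against 0 in normal cells, and their log2 ratios among cells carrying endothelial genes were 3.59, 0 and 0.94. At the other end Krt77, an epidermal keratin, held 116 UMIs in normal cells and 0 in IMQ cells.

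Genes of capillary endothelium, among them those that carry fatty acids, were lower in IMQ. Of 18 capillary genes compared, 1 was higher and 9 were lower (median log2 ratio -0.94, against 0.00 over all genes), and 1 and 10 among the cells carrying endothelial genes (median -1.54). Cd36, the scavenger receptor that takes up fatty acids, stood at 1472, 122 and 29.2 CPM in all cells of the rule and at 1513, 141 and 82.3 in those carrying endothelial genes. It was 12.1-fold lower (interval 10.3 to 14.2) in IMQ than in normal cells, and 10.8-fold lower (interval 9.10 to 12.8) among the latter. Fabp4, a carrier of fatty acids inside the cell, stood at 19211, 2606 and 626 CPM and was 7.37-fold lower (interval 7.12 to 7.64). Tcf15, a transcription factor that partners with Meox2 to control fatty acid uptake in capillaries, stood at 183, 23.3 and 21.2 CPM (log2 ratio -2.92). Aqp7, an aquaglyceroporin that passes glycerol, held 101 UMIs in normal cells and 0 in both others, which makes it at least 48.0-fold lower in IMQ. C1qtnf9, which encodes an adiponectin-like secreted protein, stood at 315, 40.2 and 4.03 CPM. In all of these genes the normal library was highest, whichever set of cells was used.

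Some other capillary genes were not called lower. Gpihbp1, which anchors lipoprotein lipase to the capillary wall, stood at 888, 679 and 77.6 CPM, with a log2 ratio of -0.39 between IMQ and normal cells and -0.05 among cells carrying endothelial genes. Car4, a membrane carbonic anhydrase, stood at 32.2, 118 and 0 CPM and was 3.66-fold higher (interval 2.5 to 5.53) in IMQ. Within the 92 normal and 15 IMQ capillary-marked cells the direction of the first group was the same. Cd36 stood there at 2051 normal and 199.7 IMQ CPM, Fabp4 at 25063 normal and 589 IMQ CPM and Cxcl12, the ligand of CXCR4, at 1139 normal and 70.6 IMQ CPM, while Gpihbp1 stood at 1517 normal and 1890 IMQ CPM. Cd36 and Gpihbp1 were among the markers that named these cells. The 13 capillary genes not used to mark cells stood, summed, at 31186 CPM in normal capillary-marked cells, the highest of the normal kinds. In IMQ capillary-marked cells they stood at 3487 CPM, below venous-marked (8577), arterial-marked (5087) and no-kind cells (7721). The capillary label of IMQ cells thus rests on its markers only throughout, and the cause was not tested. Cd36 and Fabp4 were also lower in IMQ in the 27 normal and 17 IMQ venous-marked cells. Cd36 stood there at 871 normal and 167 IMQ CPM and Fabp4 at 21437 normal and 4781 IMQ CPM. The lipid handling list, which shares members with the capillary list, had 1 gene higher and 7 lower of 17, and 0 and 11 of 17 among cells carrying endothelial genes.

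Caveolar genes, which form the plasma membrane pits abundant in capillary endothelium, include Cav1, Cav2 and Cavin2, which were lower in IMQ. Cav1 stood at 1186, 569 and 648 CPM, Cav2 at 411, 176 and 170.3 and Cavin2 at 486, 189.8 and 127, with log2 ratios of -1.06, -1.22 and -1.35 between IMQ and normal cells. Of the 19 junction and caveola genes compared, 0 were higher and 5 lower, and 0 and 3 of 19 among cells carrying endothelial genes, against 7.55% of all genes lower there. Txnip, a regulator of glucose uptake and redox state, stood at 1263, 250.5 and 205 CPM and Hspb1, a small heat shock protein, at 2890, 925 and 886, and both were lower in IMQ, with log2 ratios of -2.33 and -1.64. The flow-responsive factor Klf2 stood at 1359, 1097 and 454 CPM and did not pass 2-fold (log2 ratio -0.31).

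Genes for antigen presentation and for the interferon response were lower in IMQ over the cells as a whole. Of 29 interferon response genes, 1 was higher and 15 were lower (median -1.05), and 1 and 10 among cells carrying endothelial genes (median -0.79). Iigp1, an interferon-induced GTPase, stood at 469, 138 and 131 CPM and was 3.39-fold lower (interval 2.87 to 4.03). Gbp4, another such GTPase, stood at 151, 35.3 and 35.3 CPM, and Bst2, which tethers virus particles to the membrane, at 895, 426 and 413. The 1 gene that was higher was Cxcl10, the ligand of CXCR3 that draws T cells, at 329, 836 and 101 CPM. The list differed between vessel kinds, with a median of -0.99 in capillary-marked cells and 0.13 in venous-marked cells. Iigp1 stood at 476 normal and 94.96 IMQ CPM in the former and at 545 normal and 254 IMQ CPM in the latter. Cxcl10 stood at 237 normal and 302 IMQ CPM in the former and at 558 normal and 2696 IMQ CPM in the latter.

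MHC class I genes followed the interferon list, with 0 of 16 higher and 7 lower (median -0.98). Among cells carrying endothelial genes 0 were higher and 5 lower of 16 (median -0.87). Of all genes 7.43% and 7.55% were lower in these 2 sets of cells. H2-Q6 stood at 303, 75.5 and 86.7 CPM (log2 ratio -1.99) and the immunoproteasome subunit Psmb9 at 224, 80.4 and 65.5 (-1.47). H2-Q6 and H2-Q7 are near-identical copies whose reads the counting could split, so their separate values are uncertain. The classical chain H2-K1, at 2495, 1277 and 905 CPM, and its partner B2m, at 2492, 1874 and 1276 CPM, did not pass 2-fold. All 5 MHC class II genes compared were lower. Cd74, the invariant chain, held 331, 5 and 4 UMIs, and H2-Aa held 68, 0 and 0. In all other filtered cells Cd74 stood at 1547, 570.4 and 149 CPM, and the part of free RNA in the droplets was not tested. Within normal cells, Cd74 stood at 1661 CPM in arterial-marked, 241 in capillary-marked and 452 in venous-marked cells, and 1 cell held 16.3% of its UMIs.

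**Figure D4:**
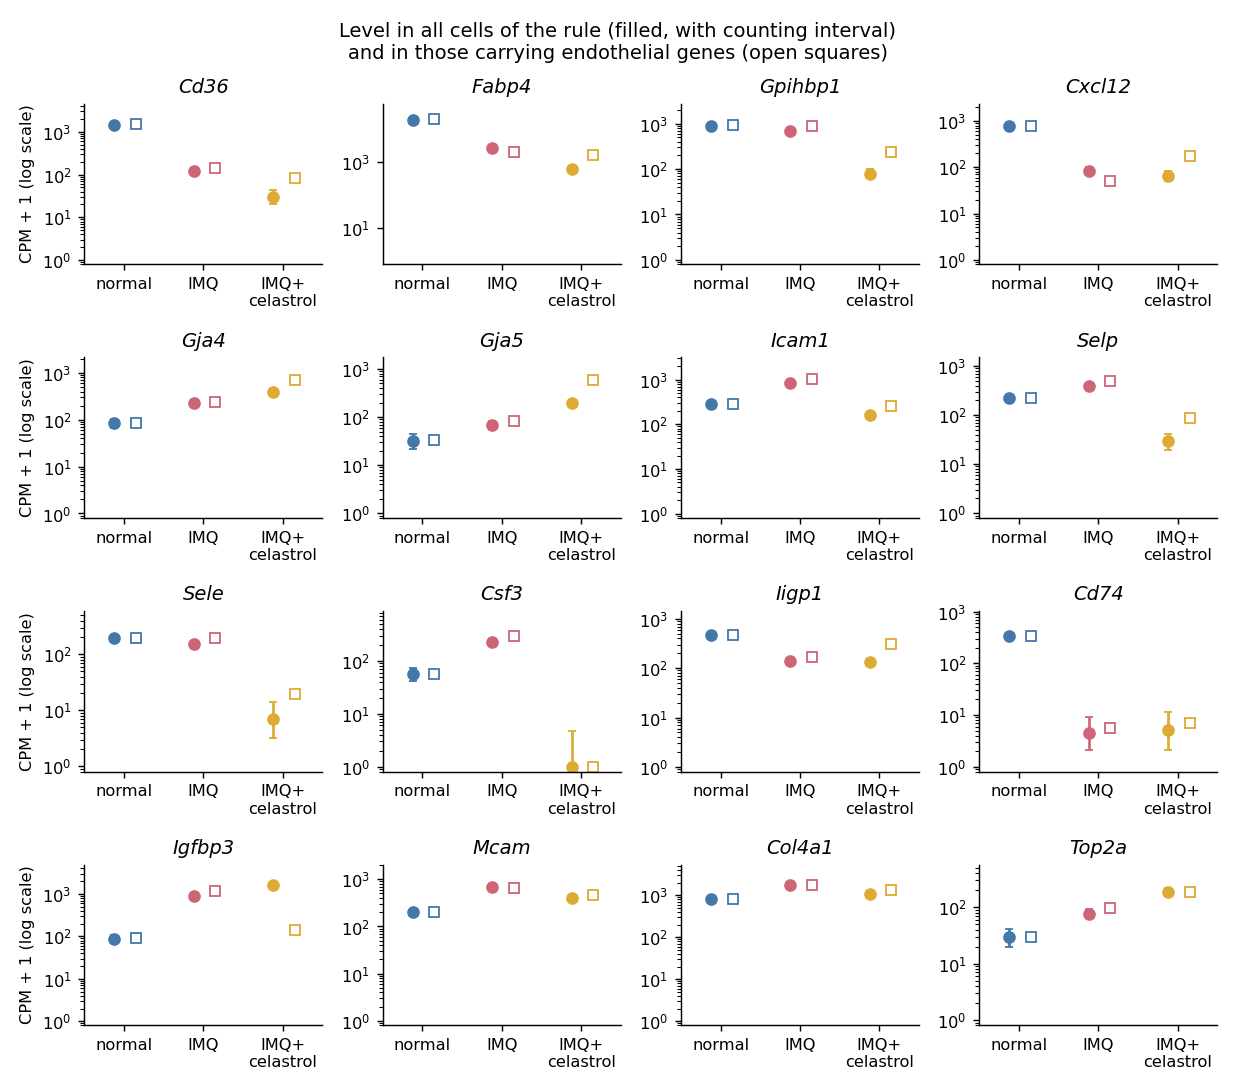
Level (CPM + 1, log scale) of 16 genes in each library. Filled points are all cells of the rule with exact 95% Poisson intervals, which cover counting error only, and open squares are the cells carrying endothelial genes. Cd36, Fabp4 and Cd74 are highest in the normal library, Icam1, Selp and Csf3 in IMQ, and Gja5 in IMQ+celastrol, while Igfbp3 in IMQ+celastrol lies far apart between the filled and open symbols.

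Adhesion molecules stood higher in IMQ than in IMQ+celastrol cells. Icam1, which binds leukocyte integrins, stood at 279, 852 and 160.2 CPM in all cells of the rule and at 284, 1054 and 259 in those carrying endothelial genes. It was 3.05-fold higher (interval 2.68 to 3.49) in IMQ than in normal cells and 5.32-fold lower (interval 4.51 to 6.32) in IMQ+celastrol than in IMQ cells. Among cells carrying endothelial genes the latter difference was 4.07-fold lower (interval 3.26 to 5.13). Selp stood at 219, 384 and 28.2 CPM and Sele, or E-selectin, at 191, 150.3 and 6.05. Neither passed 2-fold between IMQ and normal over all cells of the rule, while in IMQ+celastrol Selp was 13.6-fold lower (interval 9.31 to 20.7) and Sele 24.9-fold lower (interval 11.2 to 68.5) than in IMQ. Among cells carrying endothelial genes Selp was 5.86-fold lower (interval 4.01 to 8.90) and Sele 10.7-fold lower (interval 4.84 to 29.5) in IMQ+celastrol. Ackr1 held 110, 299 and 1 UMIs. In IMQ over normal, 1 of 16 leukocyte adhesion genes was higher and 0 lower, and 3 and 0 of 16 among cells carrying endothelial genes. Of all genes 8.99% and 6.66% were higher in these 2 sets of cells. Over all 9221 genes compared between IMQ+celastrol and IMQ, 10.3% were higher and 6.6% lower, and of the 16 adhesion genes 1 was higher and 10 lower (median -1.45, against 0.14 over all genes). Over the same cells the 25 pan-endothelial genes had a median of -1.49, with 20 lower, so the adhesion list was no lower than endothelial genes in general. Among cells carrying endothelial genes 8.3% of 7181 genes were lower (median 0.04), and 9 of 16 adhesion genes were (median -1.16). The 25 pan-endothelial genes had 3 lower there (median -0.40). Their sum was used to split the cells, so in this set they are no independent measure.

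Selp and Ackr1 were among the markers of venous cells, and the IMQ+celastrol library held no venous-marked cell with endothelial genes. The 1 cell marked venous there lacked the endothelial list and held mural genes at 70010 CPM. In venous-marked cells Selp stood at 918 normal and 1463 IMQ CPM, Sele at 851 normal and 526 IMQ CPM and Ackr1 at 525 normal and 892 IMQ CPM. Icam1 was present in capillary-marked cells too, at 229 normal and 1144 IMQ CPM. In venous-marked cells it stood at 459 normal and 1268 IMQ CPM. In arterial-marked cells, the kind with the most even numbers, Icam1 stood at 319, 301 and 180.5 CPM from 20, 26 and 22 UMIs. In arterial-marked cells the 18 adhesion genes not used to mark cells stood, summed, at 3609, 3025 and 2658 CPM. Lower adhesion gene levels and fewer venous cells in IMQ+celastrol cannot be told apart with these numbers of cells. Of the 17 venous genes, 1 was higher and 11 lower in IMQ+celastrol than in IMQ, and 2 and 7 among cells carrying endothelial genes. Over all cells of the rule their median was -1.08, no lower than the -1.49 of the 25 pan-endothelial genes. Among cells carrying endothelial genes it was -0.76, against 0.04 over all genes. Lrg1, a secreted glycoprotein that promotes vessel growth, stood at 729, 868 and 51.4 CPM and Aplnr, the apelin receptor, at 134, 119 and 11.1.

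Some cytokine genes followed the order of Icam1. Csf3, which encodes the granulocyte growth factor G-CSF, held 54 UMIs in normal cells, 318 in IMQ cells and 0 in IMQ+celastrol cells. It was 4.13-fold higher (interval 3.09 to 5.62) in IMQ than in normal cells and at least 74.2-fold lower in IMQ+celastrol than in IMQ, or at least 31.9-fold lower among cells carrying endothelial genes. The IMQ UMIs came from 21 of 58 cells carrying endothelial genes, with 27.4% of them in 1 cell. Il6 stood at 249, 485 and 37.3 CPM over all cells of the rule and did not pass 2-fold between IMQ and normal. Over the same cells it was 13.0-fold lower (interval 9.35 to 18.7) in IMQ+celastrol than in IMQ. Tnfaip3, which shuts off NF-kB signalling, stood at 91.4, 246 and 45.3 CPM and was called higher in IMQ (log2 ratio 1.42) and lower in IMQ+celastrol (-2.42). The NF-kB list as a whole was less uniform. In IMQ over normal 2 of 17 genes were higher and 0 lower, close to the 8.99% and 7.43% of all genes. In IMQ+celastrol against IMQ 1 was higher and 4 lower of 17, against 10.3% and 6.6% of all genes. Cxcl1, the neutrophil attractant, stood at 175, 725 and 94.7 CPM in all cells of the rule but at 163, 201 and 76.2 in those carrying endothelial genes, where its log2 ratio between IMQ and normal was 0.31.

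The upstream sequences of 4 of these genes are shown because NF-kB factors are known to drive adhesion and cytokine genes in endothelium. Each is the 250 bases before the RefSeq start on GRCm38.p6, with matches to the kappa-B type motif GGNNTTTCC, searched on both strands, in capitals.
Icam1, chr9:21015690-21015939, plus strand: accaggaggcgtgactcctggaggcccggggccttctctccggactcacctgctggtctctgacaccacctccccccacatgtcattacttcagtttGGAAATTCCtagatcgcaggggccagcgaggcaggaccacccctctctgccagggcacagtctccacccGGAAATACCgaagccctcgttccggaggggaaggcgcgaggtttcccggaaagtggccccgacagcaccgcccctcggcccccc
Selp, chr1:164115014-164115263, plus strand: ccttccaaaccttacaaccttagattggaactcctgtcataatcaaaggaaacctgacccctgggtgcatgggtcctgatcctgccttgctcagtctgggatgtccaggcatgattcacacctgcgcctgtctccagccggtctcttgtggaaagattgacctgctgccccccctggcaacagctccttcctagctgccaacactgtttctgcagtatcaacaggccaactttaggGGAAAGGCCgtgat
Sele, chr1:164047984-164048233, plus strand: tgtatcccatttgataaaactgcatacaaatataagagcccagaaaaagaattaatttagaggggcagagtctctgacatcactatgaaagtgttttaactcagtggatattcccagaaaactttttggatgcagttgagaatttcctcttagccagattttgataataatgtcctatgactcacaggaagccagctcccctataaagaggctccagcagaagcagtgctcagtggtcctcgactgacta
Il6, chr5:30012864-30013113, plus strand: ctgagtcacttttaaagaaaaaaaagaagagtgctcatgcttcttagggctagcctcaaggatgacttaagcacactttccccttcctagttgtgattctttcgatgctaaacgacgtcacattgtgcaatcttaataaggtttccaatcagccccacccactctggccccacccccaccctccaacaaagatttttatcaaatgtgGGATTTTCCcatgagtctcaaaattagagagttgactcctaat
Icam1 held 2 matches, from 153 to 145 and from 84 to 76 bases before the start, Selp 1 from 14 to 6, Il6 1 from 43 to 35, and the Sele window held these letters nowhere. Of 32851 such promoters in the RefSeq table, 4.93% held the motif. It was found for 3 of the 14 adhesion list genes that matched the table by symbol (Icam1, Madcam1 and Selp) and for 7 of 16 NF-kB list genes. It was found for 4 of 20 interferon response genes that matched (Cxcl10, Ifit3, Isg15 and Rsad2). Counted by promoter, as the 4.93% is, the motif was in 3 of 16 adhesion, 8 of 20 NF-kB and 4 of 23 interferon promoters. A stricter form, with a further G before the motif, was in 1.41% of all promoters. It was found for 1 adhesion gene (Madcam1), for 5 NF-kB genes, among them Il6, and for 0 interferon genes. Icam1, Selp and Sele thus did not hold it. Looser forms of the motif were not searched, so the Sele window can be said to lack these letters only. A match describes letters in a window and not binding.

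Genes of vessel sprouting went both ways in IMQ. Of 26 sprouting genes, 9 were higher and 5 lower, and 7 and 4 of 25 among cells carrying endothelial genes. Igfbp3, a binding protein of insulin-like growth factors, stood at 86.4, 892 and 1627 CPM and was 10.3-fold higher (interval 8.29 to 13.0) in IMQ. In IMQ+celastrol it was higher still over all cells of the rule, but it stood at 89.2, 1150 and 140.3 CPM in cells carrying endothelial genes, where it was 8.20-fold lower (interval 6.11 to 11.3) than in IMQ. Among IMQ cells it stood higher in capillary-marked ones, at 2454 CPM against 103 in venous-marked ones. Kcne3, a potassium channel subunit of sprouting tip cells, stood at 2.01, 71.3 and 10.1 CPM, from 13 IMQ cells carrying endothelial genes. Mcam (CD146) stood at 200, 677 and 399 CPM and the urokinase receptor Plaur at 75.4, 207 and 41.3, with log2 ratios of 1.75 and 1.45 between IMQ and normal. Apln, which encodes the peptide apelin, and Adm, which encodes adrenomedullin, went the other way, with 44.2, 15.5 and 6.05 and 60.3, 13.4 and 16.1 CPM (log2 ratios -1.45 and -2.09).

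Basement membrane genes were higher in IMQ in 8 of 20 cases and lower in 0 (median 0.82), and in 9 and 0 among cells carrying endothelial genes (median 0.82). Fibroblast genes were higher with them, in 9 of 11 cases over all cells of the rule (median 2.17) and in 5 of 9 among cells carrying endothelial genes (median 1.003), with 0 lower in both. Summed fibroblast genes stood at 3954 normal and 7775 IMQ CPM in capillary-marked cells and at 1576 normal and 4804 IMQ CPM in venous-marked cells, and their part was not tested. The type IV collagen chain Col4a1 stood at 808, 1762 and 1096 CPM and was 2.18-fold higher (interval 2.01 to 2.36). Col18a1, whose product releases endostatin, stood at 206, 636 and 583 CPM and the nidogens Nid1 and Nid2, which link laminin to collagen, at 98.5, 283 and 157 and at 35.2, 125 and 42.3. Sparc, a matrix-binding protein, stood at 2524, 5034 and 3558 CPM. In capillary-marked cells Col4a1 stood at 1147 normal and 2527 IMQ CPM and in venous-marked cells at 279 normal and 1306 IMQ CPM. Between IMQ+celastrol and IMQ, 1 of the 20 was higher and 4 lower, against 10.3% and 6.6% of all genes. Among cells carrying endothelial genes 3 were higher and 3 lower (median -0.42), against 7.05% and 8.3% of all genes.

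Haemostasis genes were higher in IMQ in 8 of 16 cases and lower in 0, and in 6 and 0 of 14 among cells carrying endothelial genes. Of all genes 8.99% and 6.66% were higher in these 2 sets of cells. Plat, the tissue plasminogen activator that starts the dissolving of clots, stood at 14.1, 77.6 and 69.5 CPM and was 5.52-fold higher (interval 3.15 to 10.4). Thbd, the thrombomodulin gene that restrains clotting, stood at 133, 129.8 and 47.4 CPM and did not pass 2-fold (log2 ratio -0.03). Glycolysis genes were higher in 6 of 20 cases and lower in 0, and in 5 and 0 of 19 among cells carrying endothelial genes. Gapdh stood at 773, 1684 and 1272 CPM, Pkm at 304, 801 and 605 and the glucose transporter Slc2a1 at 27.1, 76.9 and 49.4. The endothelin receptor gene Ednrb stood at 30.1, 135 and 37.3 CPM and was 4.47-fold higher (interval 3.03 to 6.81) in IMQ than in normal cells and 3.61-fold lower (interval 2.53 to 5.29) in IMQ+celastrol than in IMQ.

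Cell cycle genes were higher in IMQ, in 17 of 22 cases with 0 lower (median 1.81), and in 18 with 0 lower among cells carrying endothelial genes (median 2.0). Top2a, which untangles replicated DNA, stood at 28.1, 76.2 and 188 CPM and was 2.71-fold higher (interval 1.77 to 4.26) in IMQ. Ube2c, a ubiquitin-conjugating enzyme of mitotic exit, held 6, 195 and 289 UMIs. These genes rested on few cells: of the IMQ cells carrying endothelial genes, 11 held a Top2a UMI and 13 a Ube2c UMI, and 1 cell held 38.6% of the latter. The IMQ cells were also deeper than the normal ones. With the 163 normal and 73 IMQ cells of at least 2000 UMIs thinned to 2000 each, the median was 0.90. Genes under 20 UMIs after thinning were not compared. As a mean over cells without thinning it was 1.64, and the part of depth was not tested. Between IMQ+celastrol and IMQ, 4 of 22 were higher and 0 lower, and 1 and 0 among cells carrying endothelial genes. Of all genes 10.3% and 7.05% were higher in these 2 sets of cells.

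Arterial genes stood out in the IMQ+celastrol cells that carried endothelial genes. Over all cells of the rule, 20 of the 25 pan-endothelial genes were lower than in IMQ and 0 higher, and among cells carrying endothelial genes 3 were lower and 1 higher. The split uses the sum of these genes, so the latter count is no result. Of 20 arterial genes, 2 were higher and 2 lower over all cells of the rule (median 0.27), but 15 were higher and 0 lower among cells carrying endothelial genes (median 1.32), against 7.05% of all genes higher there. In these cells the arterial-marked share was 14.3% in IMQ and 35.0% in IMQ+celastrol. Within arterial-marked cells the summed level of the 16 arterial genes not used to mark cells was not higher, at 22748 CPM in IMQ and 19764 CPM in IMQ+celastrol. Gja5 stood at 31.2, 68.4 and 194 CPM in all cells of the rule and at 32.1, 83.6 and 579 in those carrying endothelial genes, where it was 6.93-fold higher (interval 5.37 to 8.99) than in IMQ. Gja4 stood at 85.0, 237 and 717 CPM in the latter cells, Sema3g, a secreted semaphorin of arterial endothelium, at 69.5, 62.5 and 323, and Eln, the elastin gene, at 207, 399.9 and 1751. Gkn3, among the genes with the largest ratios in these cells, stood at 49.8, 47.8 and 451 CPM, from 10 of 23 cells with 28.4% of its UMIs in 1 cell. Cxcl12 was 15.9-fold lower (interval 12.1 to 21.4) in IMQ than in normal among these cells and 3.56-fold higher (interval 2.42 to 5.26) in IMQ+celastrol than in IMQ. Mural genes were higher along with the arterial ones, in 10 of 14 cases with 0 lower, and their part was not tested.

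Over all cells of the rule, 9 of 15 capillary genes were lower in IMQ+celastrol than in IMQ and 0 higher. Their median was -1.72, close to the -1.49 of the 25 pan-endothelial genes. Among cells carrying endothelial genes 6 of 15 were lower and 2 higher. The median there was -0.27, against 0.04 over all genes. Aqp1, the water channel, stood at 1360, 1067 and 61.0 CPM in the latter cells and was 17.5-fold lower (interval 11.3 to 28.8) than in IMQ. Cd36 and Fabp4 stood there at 1513, 141 and 82.3 CPM and at 19807, 2027 and 1699 CPM, neither past 2-fold between IMQ+celastrol and IMQ. Interferon response genes changed sign with the cells counted: 2 were higher and 6 lower of 28 over all cells of the rule (median -0.31), and 7 higher and 2 lower of 27 among cells carrying endothelial genes (median 0.59). Gbp4 stood at 155, 46.0 and 107 CPM in the latter cells, between the IMQ and the normal level. IMQ+celastrol shares its IMQ reference with the comparison above, so a high or low IMQ value bears on both.

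**Figure D5:**
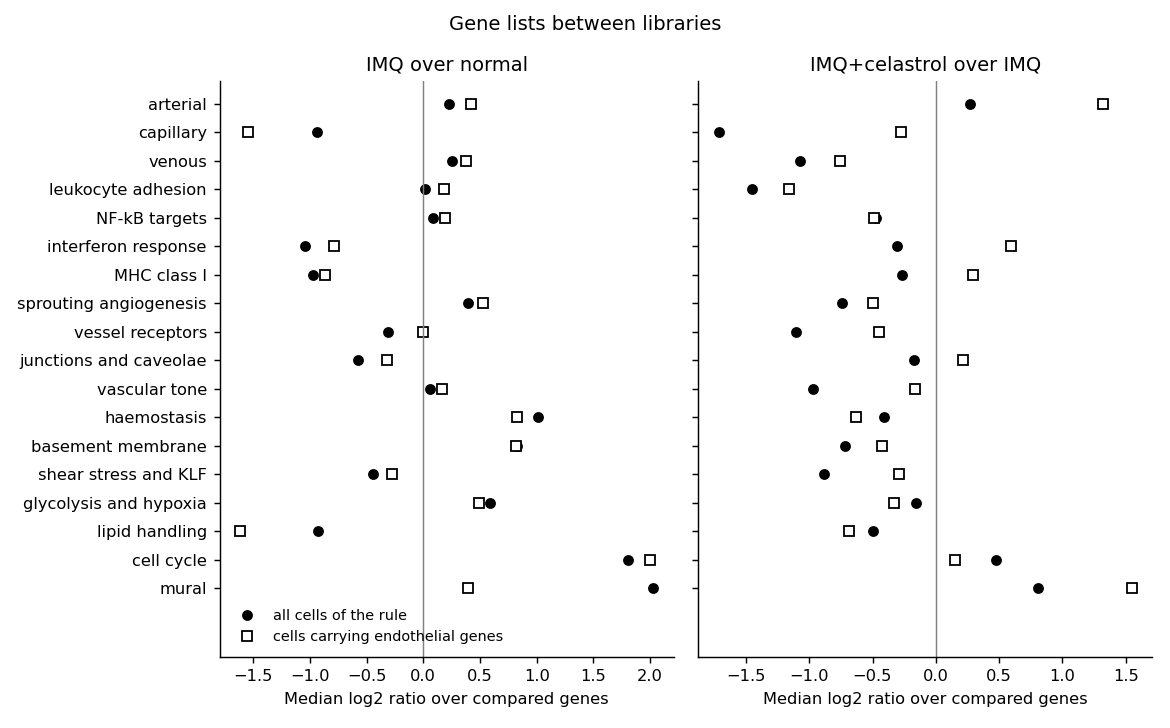
Median log2 ratio over the compared genes of 18 lists, for IMQ over normal (left) and IMQ+celastrol over IMQ (right). Filled circles are all cells of the rule and open squares the cells carrying endothelial genes. The symbols lie close on the left except for capillary, lipid handling and mural genes. On the right they part most for arterial (0.27 and 1.32), capillary (-1.72 and -0.27) and interferon response genes (-0.31 and 0.59). Others part there too, among them vascular tone (-0.97 and -0.17) and mural genes (0.81 and 1.55). MHC class I (-0.27 and 0.30) and junction and caveola genes (-0.17 and 0.22) also change sign.

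Against the normal library, 15.5% of 8884 genes were higher and 9.74% lower in IMQ+celastrol over all cells of the rule, and 8.8% and 11.4% of 7055 (20.2% either way) among cells carrying endothelial genes. The lowest genes by size included Aqp7, H2-Aa, Cd74, Ackr1 and Csf3, all described above, and Ret, a receptor tyrosine kinase, with 50, 30 and 0 UMIs. Lrp1, the endocytic receptor that the series title names as a target of celastrol, stood at 15.1, 33.9 and 116 CPM over all cells of the rule and at 15.5, 5.52 and 24.4 in cells carrying endothelial genes, from 12, 5 and 5 cells. It stood at 159, 497 and 299.7 CPM in all other filtered cells. Its log2 ratio between IMQ and normal was 1.12 over all cells of the rule and -1.34 among cells carrying endothelial genes, so no direction can be given for the endothelium.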

How the data were processed

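Per the labels, dorsal skin of 3 groups was made into 3 single-cell libraries. The authors deposited counts of UMIs for 31053 genes per cell barcode, and the file headers name Cell Ranger 4.0.0, with mm10 (GRCm38) named in the submitters' processing notes. Mapping settings are not given in the sources used here. Ambient RNA was not subtracted.

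From these counts, the cells of each library were summed and scaled to 1000000 UMIs. Log2 ratios used CPM + 1, with at least 20 UMIs in the pair, and no test was possible with 1 library per group. Shares have exact (Clopper-Pearson), levels exact Poisson and folds conditional binomial 95% intervals, which cover counting error only. A count of 0 was set at 3 UMIs for lower bounds. Python 3.11.15, numpy 2.4.6, scipy 1.17.1 and scanpy 1.11.5 were used, and the comparison was tested on simulated data. Scrublet in scanpy marked 2, 0 and 2 chosen cells, which were kept; in the IMQ library it marked 0 of 8008 cells and did not work.

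Genes are named by a rule: in each of 33 lists, the 4 with most UMIs and the 4 with the largest ratio, in each comparison the 10 highest and 10 lowest with at least 50 UMIs, the genes of the selection, the 15 leading over other cells, and Lrp1. The rule on highest and lowest genes was also applied to the cells carrying endothelial genes, a set added after seeing the data. The cells and lists were chosen with earlier results of these data known.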

Additional observations from a re-analysis of the deposited data

How the results depend on the processing

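No paired analysis was possible because each group is 1 library. Over 4937 values of 321 named-gene results under the alternatives, 15 in 11 results turned direction, as did 3 of 1159 values of list medians. Numbers of higher and lower genes are given in the order IMQ over normal (comparison A), IMQ+celastrol over IMQ (B) and IMQ+celastrol over normal (C). The numbers were 809 and 669, 949 and 609, and 1374 and 865. They became 1634 and 1556, 2101 and 1207, and 2401 and 1569 at 1.5-fold; 1663 and 2439, 2913 and 1188, and 3599 and 2469 with no filter on low counts; 448 and 357 (A), 462 higher (B) and 704 and 560 (C) with at least 50 UMIs; 454 and 312, 478 and 370, and 912 higher with a pseudocount of 10; and 323 and 422, 119 and 196, and 325 higher with cells thinned to 2000 UMIs. Higher genes made up 54.7%, 60.9% and 61.4% of those past 2-fold, and 43.4%, 37.8% and 35.0% after thinning.

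With a collagen limit of 100, higher genes numbered 1304 (A) and 616 (B), the medians of the interferon (B) and venous (A) lists were 0.082 and -0.28, and log2 ratios of shares went from -1.10 to -0.51 (A) and from -1.55 to -0.97 (C). With at least 4 rule genes, comparison B gave 0.99 for arterial, -0.053 for cell cycle and 0.23 for interferon genes, comparison C 793 higher genes, and share ratios were -1.17 and -2.49. Cells carrying endothelial genes gave 506 (B) and 621 (C) higher genes, and in comparison B 1.32 for arterial, -0.27 for capillary and 0.59 for interferon genes, with share ratios of -2.46 (C) and, with the collagen limit of 100, -2.37. With a limit on keratin and mural genes, which left 10 IMQ+celastrol cells, higher genes numbered 488 and 728 (C), basement membrane and cell cycle gave -1.60 and 0.11 (B), and share ratios were -1.72 and -2.93. Thinning gave 0.55 for arterial and 0.90 for cell cycle genes (A) and -0.32 for basement membrane and 0.062 for interferon genes (B). Means over cells gave 0.52 for interferon genes (B), and another doublet rate gave 3.50 for cell cycle (A) and -0.64 for interferon genes (B). Capillary-marked cells alone gave -0.82 for arterial genes and 451 higher genes. Venous-marked cells alone gave 3.33 for cell cycle, 0.13 for interferon genes, and 479 and 246 genes; neither was run with IMQ+celastrol, which held 2 and 1 such cells.

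The log2 ratios that turned direction by that count were as follows, beside the interferon median of venous-marked cells given above. In comparison A they were Cxcl1 (-0.079), Fbln5 (-1.50) and Gja4 (-0.33) in capillary-marked cells, Gja5 under the keratin and mural limit (-0.13), and Lrp1 with at least 4 rule genes (-1.38) and in cells carrying endothelial genes (-1.34). In B they were Ccnb1 (-0.43, -0.29 and -0.12 with 4 rule genes, the keratin and mural limit and endothelial genes), Ifit1 as a mean over cells (0.57) and Ramp2 in cells carrying endothelial genes (0.041). In C they were Cxcl10 (0.73) and Ifit1 (0.27) as means over cells, Icam2 with 4 rule genes (0.14) and endothelial genes (0.50), and, with endothelial genes, the sprouting and vascular tone lists (0.051 and 0.26). The cause was not tested. With 23 to 206 cells carrying endothelial genes, depth limits genes under 20 UMIs, which were not compared.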

Other observations

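Nts, which encodes the peptide neurotensin, held 0, 61 and 0 UMIs, and its IMQ UMIs came from 4 cells carrying endothelial genes.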
